A study of Mus musculus with 6 samples.

Results

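The interferon-stimulated genes described here are 35 genes that type I or type II interferon is known to induce in mouse macrophages. They were chosen by name, as the Ensembl genes whose GENCODE M21 symbol is on a list of names. The rule uses no measured value, but the list was drawn up with earlier results of these data known. All 35 were found among the 49315 genes of the tables, and all 35 had enough counts to be tested, as did 16134 genes in all. RNA was sequenced from liver cells captured with magnetic beads against F4/80, a surface protein of macrophages, and 1 library was made per mouse. The control mice (WT, n = 3) carried floxed alleles of Lpcat3, the enzyme that loads polyunsaturated fatty acids such as arachidonic acid onto membrane phospholipids, without Cre. The Lpcat3 KOMac mice (n = 3) carried the same floxed alleles together with LysM-Cre, a Cre recombinase placed in the Lyz2 gene that acts in myeloid cells. All 6 mice had received a high fat diet (60% fat) for 16 weeks before the liver was digested. The comparison asked how the transcripts of liver macrophages differed between these genotypes under this diet. Only the Lpcat3 KOMac mice carried Cre and the changed Lyz2 gene, so their effects cannot be told apart from that of losing Lpcat3.

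Interferons are secreted proteins that bind surface receptors and signal through JAK kinases to transcription factors. Type I interferon acts through a complex holding STAT2 and IRF9 that binds a promoter motif named the interferon-stimulated response element (ISRE), whereas type II interferon acts mainly on the gamma-activated site (GAS). The induced genes encode sensors of foreign nucleic acid, antiviral enzymes and GTPases that attack the compartments of intracellular microbes. Macrophages of the liver express many of them at a resting level without infection. The level measured here is that of sorted cells after a high fat diet, with no other diet to compare.

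Total counts per library lay between 44954224 and 71392812, and levels are given in CPM, the count relative to the TMM-scaled size of its library. Lpcat3 itself stood at 85.0, 66.2 and 61.2 CPM in the WT mice, against 19.5, 33.3 and 19.4 CPM in the Lpcat3 KOMac mice (mice 1 to 3 in this order throughout), so the genotypes did not overlap and a part of the transcript remained. The 11 markers of resident liver macrophages (Kupffer cells) summed to between 36700 and 51000 CPM in the WT mice and to between 28800 and 39200 CPM in the Lpcat3 KOMac mice. All 11 had a lower mean in the Lpcat3 KOMac mice, with a median log2 fold change of -0.27, where 59.9% of all genes tested were lower. Clec4f, C1qa, C1qb and Folr2 were lower in every Lpcat3 KOMac library than in every WT library, as were 5.2% of all genes tested. Transcripts of hepatocytes were also present, and their mean was highest in WT mouse 1 (11.25 on the log2 CPM scale) and Lpcat3 KOMac mouse 2 (10.39), against 7.35 to 8.98 in the other 4 libraries. These are bulk samples, in which fewer cells of a type and less RNA per cell cannot be told apart.

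In the Lpcat3 KOMac mice 34 of the 35 interferon-stimulated genes had a lower mean than in the WT mice, and 1, Gbp2, had a higher one. The median log2 fold change was -0.23, or 85.5% of the WT level, where the median over all 16134 genes tested was -0.04 and 59.9% of them were lower. The differences were small, from -0.58 (Usp18) to 0.05 (Gbp2), and no single gene passed the test across all genes. With edgeR's quasi-likelihood test and Benjamini-Hochberg adjustment, 0 of 35 members were called at an adjusted p under 0.05, as were 0% of all genes tested, and the adjusted p of each member was 1.00. The deleted gene Lpcat3, at a log2 fold change of -1.56, was not called in edgeR either. DESeq2 and limma-voom also called 0 members, while DESeq2 called 15 genes elsewhere in the table.

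Below the level of a call, 6 of 35 members (17.1%) had an unadjusted p under 0.05 in edgeR, against 2.64% of all genes tested. These 6, all lower in the Lpcat3 KOMac mice, were Rtp4, Ifi35, Oas1a, Usp18, Irf7 and Ifit3. That count was 3 without WT mouse 1, 3 without WT mouse 2, 2 without Lpcat3 KOMac mouse 2 and 1 without Lpcat3 KOMac mouse 3, where 12.3%, 1.37%, 1.48% and 2.31% of all genes had such a p. It was 7 without WT mouse 3 and 5 without Lpcat3 KOMac mouse 1, where the shares of all genes were 3.28% and 1.09%. The share of members was thus below that of all genes without WT mouse 1 and close to it without Lpcat3 KOMac mouse 3. With libraries scaled by total counts alone it was 2 (Usp18 and Rtp4), and 31 members rather than 34 were lower. Scaled in this way, 35.1% of all genes were lower, with a median of 0.06.

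In 7 of 35 members (20%) every Lpcat3 KOMac library lay below every WT library, a separation found in 5.2% of all genes tested. The 7 were Dhx58, Zbp1, Irf9, Oas1a, Bst2, Ifi35 and Rtp4. None of the 35 was separated upwards, against 2.29% of all genes. A two-sided exact permutation test gave p = 0.1 for each of the 7, which is the smallest value that 3 mice against 3 allow. With total counts alone 2 members were separated, against 1.44% of all genes. With 1 mouse left out, the count was 12 without WT mouse 1, 17 without WT mouse 3 and 18 without Lpcat3 KOMac mouse 1, where 15.3%, 9.21% and 4.95% of all genes were separated downwards. It was 8 without WT mouse 2, 8 without Lpcat3 KOMac mouse 2 and 6 without Lpcat3 KOMac mouse 3, where the shares were 7.81%, 7.79% and 6.92%. The counts that follow were not taken over all genes tested, so they describe the members alone and cannot be set against a background. The difference between genotype means exceeded the pooled SD within a genotype in 22 of the 35 genes and did not in 13. Leaving out 1 mouse moved the log2 fold change by more than 1.5-fold, or turned its sign, in 27 genes, and did neither in the other 8, which were Irf7, Irf9, Ifit3, Mx2, Oas1a, Xaf1, Ifi35 and Rtp4.

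**Figure D1:**
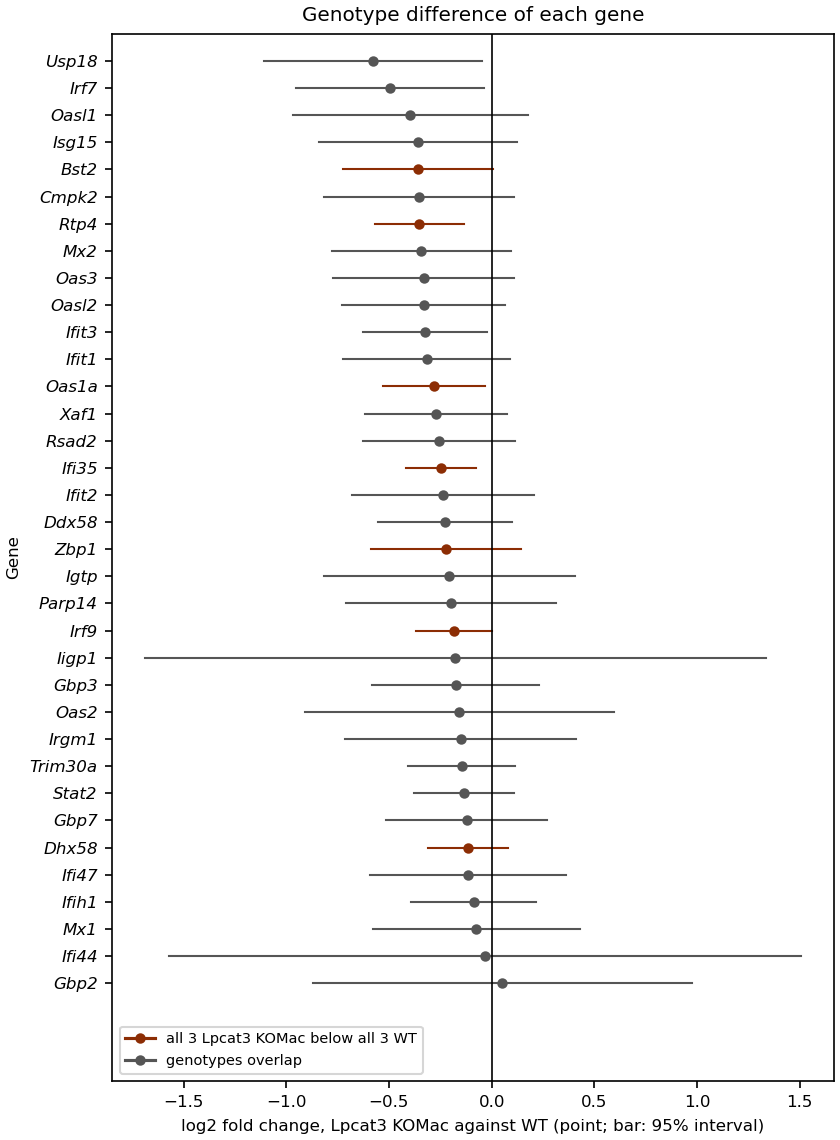
Log2 fold change of each of the 35 genes, Lpcat3 KOMac against WT (x axis), with a 95% interval derived from edgeR's test and not adjusted over genes (3 mice per genotype). 34 points lie left of 0, the 7 brown genes are those whose genotypes did not overlap, and the intervals of Iigp1 and Ifi44 are the widest.

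Between mice, the genes did not shift as a block. The mean over the 35 genes was 6.497, 6.459 and 6.396 on the log2 CPM scale in WT mice 1 to 3 and 6.351, 6.267 and 6.003 in Lpcat3 KOMac mice 1 to 3. All 3 WT values were above all 3 Lpcat3 KOMac values, with group means of 6.45 ± 0.05 (SD, n = 3) and 6.21 ± 0.18 (SD, n = 3), although WT mouse 3 and Lpcat3 KOMac mouse 1 lay only about as far apart as neighbouring WT mice. Lpcat3 KOMac mouse 3 stood lowest, and it was the library with the lowest value for 23 of the 35 genes, where it was lowest for 12.4% of all genes tested. In that mouse only Oas2 lay above its own mean over the 6 libraries.

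Lpcat3 KOMac mouse 2 showed a divided pattern, being lowest for 10 of the 35 genes and highest for 5. Of all genes tested it was lowest for 17.1% and highest for 12.1%. WT mice 1 and 2 were highest for 14 and 13 genes, and Lpcat3 KOMac mice 1 and 3 for none. WT mice 1 and 2 together held the highest pair of values in 14 genes, against 5.91% of all genes, and WT mice 2 and 3 held it in 7, against 12% of all genes. Without Lpcat3 KOMac mouse 3, 26 members were lower and 9 higher, with a median log2 fold change of -0.16. Without WT mouse 1 and Lpcat3 KOMac mouse 2, the libraries with most hepatocyte RNA, all 35 were lower with a median of -0.23.

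**Figure D2:**
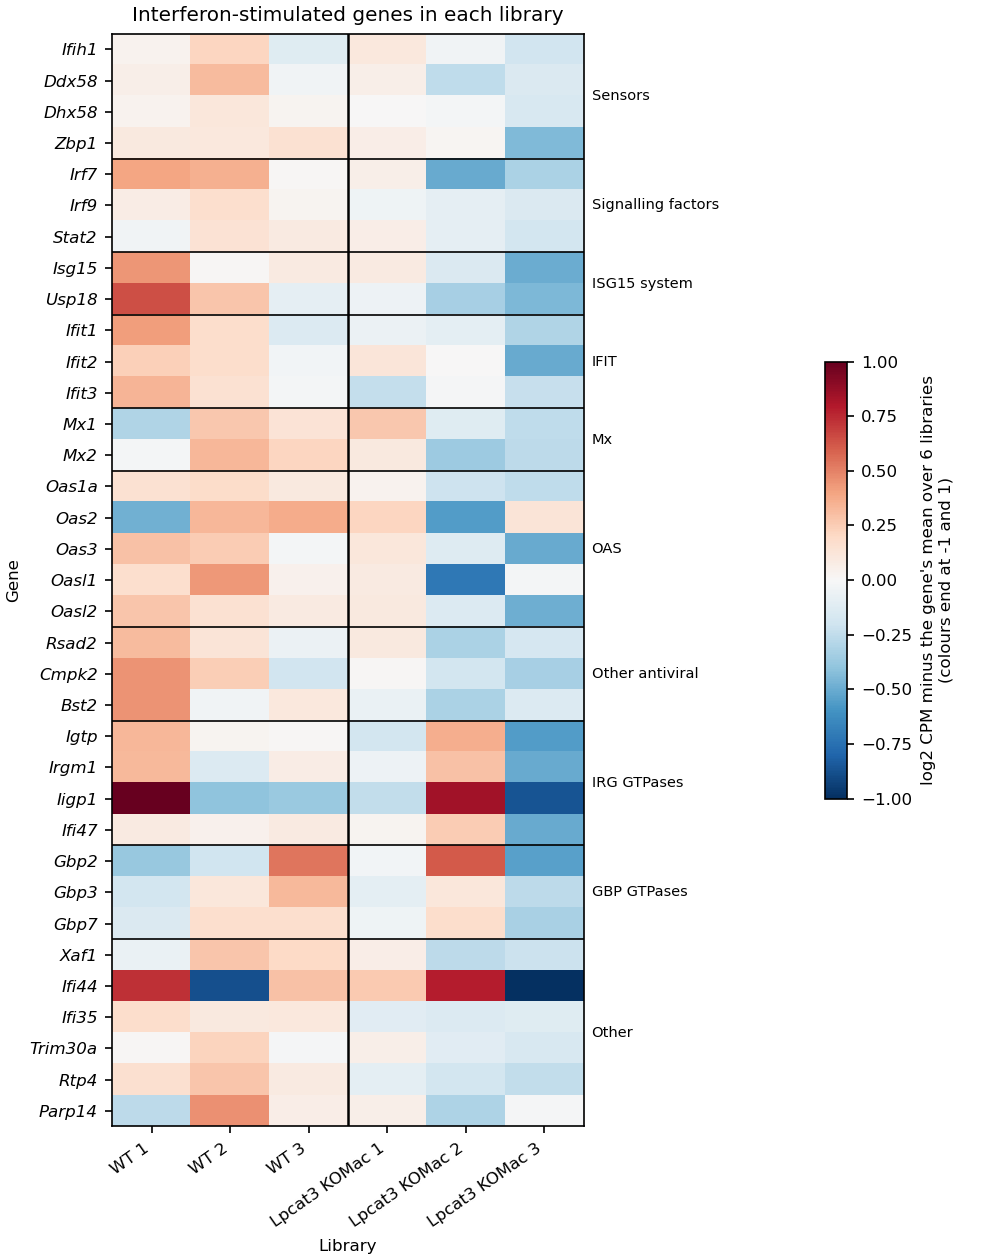
Heat map of the 35 genes (rows, by role) in the 6 libraries (columns), as log2 CPM minus the gene's mean over the 6 libraries, with colours ending at -1 and 1. Lpcat3 KOMac mouse 3 is at or below 0 in all rows but Oas2, while Lpcat3 KOMac mouse 2 is red for the IRG GTPases, the GBP GTPases and Ifi44 and blue for most others.

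To show what the members share beyond their name, the stretch from 250 bases before to 50 bases after the RefSeq start site was searched on both strands for the core of the ISRE (GAAANNGAAA) and for the GAS (TTCNNNGAA). Such a window was at hand for 26 of the 35 genes, and 16 of these (61.5%) held the ISRE core, against 3.99% of 27025 genes with a window. The GAS letters stood in 6 of 26 (23.1%), against 9.55% of all genes, and both motifs in 4 (15.4%), namely Oas1a, Bst2, Igtp and Gbp7, against 0.614%. Windows of 5 members are printed because they represent the patterns across libraries that follow. All 5 hold the ISRE core, which 16 of the 26 members with a window held. Members without it, such as the separated Irf9 and Ifi35, are thus not among them. Isg15 is the prototype of the family, Oas1a and Bst2 were separated between genotypes, Igtp was high in WT mouse 1 and Lpcat3 KOMac mouse 2, and Gbp2 was the member with a higher mean in the Lpcat3 KOMac mice. The sequences run 5′ to 3′ along the gene in build GRCm38.p6, and capitals mark the bases of ISRE or GAS matches. Isg15 lies at chr4:156200769-156201068 on the minus strand, Oas1a at chr5:120907476-120907775 on the minus strand, Bst2 at chr8:71537423-71537722 on the minus strand, Igtp at chr11:58199306-58199605 on the plus strand and Gbp2 at chr3:142620413-142620712 on the plus strand.
Isg15: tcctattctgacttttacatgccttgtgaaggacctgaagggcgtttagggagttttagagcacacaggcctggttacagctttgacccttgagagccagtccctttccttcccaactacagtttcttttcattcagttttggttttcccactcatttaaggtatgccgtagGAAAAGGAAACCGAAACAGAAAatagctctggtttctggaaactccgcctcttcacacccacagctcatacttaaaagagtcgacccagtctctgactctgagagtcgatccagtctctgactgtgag
Oas1a: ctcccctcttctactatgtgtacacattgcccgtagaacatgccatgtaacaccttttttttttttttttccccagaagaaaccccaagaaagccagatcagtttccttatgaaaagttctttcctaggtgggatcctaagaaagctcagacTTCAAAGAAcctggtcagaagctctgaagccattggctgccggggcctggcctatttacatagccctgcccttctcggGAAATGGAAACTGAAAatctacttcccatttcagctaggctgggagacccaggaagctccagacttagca
Bst2: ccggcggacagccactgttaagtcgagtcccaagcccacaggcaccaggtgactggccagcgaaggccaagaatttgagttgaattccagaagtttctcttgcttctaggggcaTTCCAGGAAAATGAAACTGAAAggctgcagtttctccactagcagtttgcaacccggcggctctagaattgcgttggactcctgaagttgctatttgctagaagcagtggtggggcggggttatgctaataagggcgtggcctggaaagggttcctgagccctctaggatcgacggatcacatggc
Igtp: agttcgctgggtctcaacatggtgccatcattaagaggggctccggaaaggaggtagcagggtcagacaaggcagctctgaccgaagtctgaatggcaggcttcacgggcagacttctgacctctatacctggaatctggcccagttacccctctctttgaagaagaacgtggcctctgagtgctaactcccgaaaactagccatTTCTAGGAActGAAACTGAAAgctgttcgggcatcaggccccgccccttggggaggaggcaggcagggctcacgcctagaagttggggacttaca
Gbp2: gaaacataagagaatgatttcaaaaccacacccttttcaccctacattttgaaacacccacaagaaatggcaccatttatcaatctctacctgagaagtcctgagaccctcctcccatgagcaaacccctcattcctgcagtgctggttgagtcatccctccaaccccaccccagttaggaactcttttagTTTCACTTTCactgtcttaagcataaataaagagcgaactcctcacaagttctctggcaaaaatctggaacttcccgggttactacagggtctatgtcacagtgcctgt

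The ISRE matches of Isg15 were 3 overlapping copies between 78 and 57 bases before the start site. In Bst2 the GAS match, from 136 to 128 bases before the start, shared its last 3 bases with the first of 2 ISRE matches. Igtp had its GAS match 45 to 37 bases and its ISRE match 34 to 25 bases before the start, and in Gbp2 a single ISRE match lay on the opposite strand, 59 to 50 bases before the start. Irf7, Irf9, Oasl1, Oasl2, Cmpk2, Ifi47, Xaf1 and Ifi44 had a window with neither set of letters, and Ifit2 and Ifi35 held the GAS letters alone. In 24 of the 30 windows of members, the last 30 bases stood in a GENCODE M21 transcript of the gene. Start sites outside these windows were not searched, so a window without a match does not show that the gene lacks the motif. A match is a description of the sequence and was not tested against the counts.

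**Figure D3:**
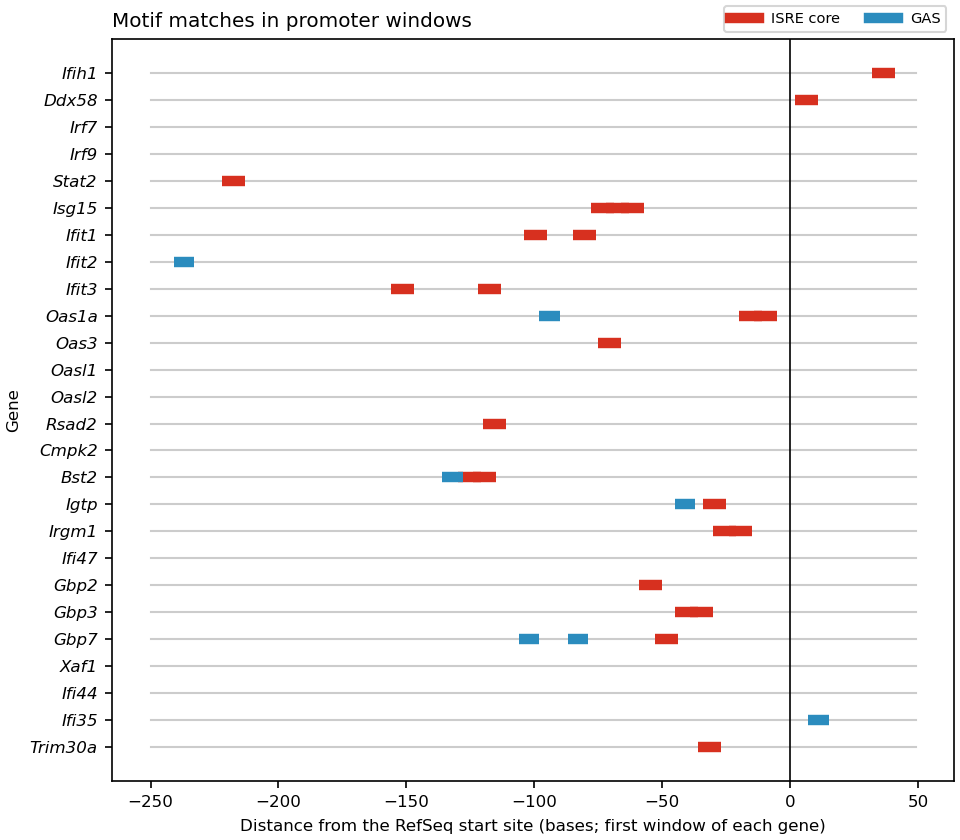
Positions of ISRE core (red) and GAS (blue) matches in the first RefSeq window of 26 of the 35 genes, as distance in bases from the start site (x axis). 16 genes carry a red bar, in most of them within about 160 bases before the start, and Oas1a, Bst2, Igtp and Gbp7 carry both colours.

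Sensors of nucleic acid were lower in the Lpcat3 KOMac mice in 4 of 4 cases by the mean, with a median log2 fold change of -0.17, and Ifih1 changed direction (0.01) with total counts alone. Ifih1, which encodes the long double-stranded RNA sensor MDA5, was at 99.7, 113 and 89.8 CPM in the WT mice and at 105, 94.9 and 85.2 CPM in the Lpcat3 KOMac mice. The genotypes overlapped, and the log2 fold change was -0.09 ± 0.12 (SE). Dhx58, which encodes the related regulator LGP2, stood at 82.6, 87.2 and 81.9 CPM in the WT mice and 80.8, 79.5 and 72.0 CPM in the Lpcat3 KOMac mice (-0.12 ± 0.08). Zbp1, a sensor of Z-form nucleic acid that can trigger cell death, was at 58.3, 58.5 and 60.6 CPM against 56.9, 55.0 and 40.0 CPM (-0.22 ± 0.15). Both were separated between genotypes, but most of the difference lay in Lpcat3 KOMac mouse 3, without which the log2 fold change was -0.04 for Dhx58 and -0.05 for Zbp1. Ddx58, which encodes the sensor RIG-I, ranged from 92.5 to 137 CPM over the 6 libraries, with a log2 fold change of -0.23 ± 0.13.

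Among the factors that carry the interferon signal, Irf7 was the most abundant and the most different. Irf7 encodes the transcription factor that amplifies type I interferon production, and its level was 714, 694 and 546 CPM in WT mice 1 to 3 and 567, 383 and 436 CPM in Lpcat3 KOMac mice 1 to 3. Lpcat3 KOMac mouse 1 lay just above WT mouse 3 and the other two below every WT mouse, for a log2 fold change of -0.50 ± 0.19 (95% interval -0.95 to -0.04). Without WT mouse 1 and Lpcat3 KOMac mouse 2 it was -0.31. Irf9, the DNA-binding subunit of the type I complex, stood at 91.8, 98.1 and 89.0 CPM in the WT mice and 84.5, 81.9 and 79.0 CPM in the Lpcat3 KOMac mice. Every Lpcat3 KOMac mouse was lower than every WT mouse, by a small margin (-0.18 ± 0.08). Stat2, its partner in that complex, was at 158, 179 and 172 CPM against 169, 152 and 142 CPM, with overlapping genotypes (-0.13 ± 0.10). Irf7 shares 45 exonic bases with Phrf1 on the opposite strand and Irf9 shares 123 with Rnf31, so their counts may hold or miss some reads of those genes.

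Isg15 encodes a ubiquitin-like protein that is attached to other proteins, and Usp18 the protease that removes it and restrains the type I receptor. Usp18 had the most negative log2 fold change of the 35, -0.58 ± 0.21 (95% interval -1.11 to -0.05), from 40.1, 31.0 and 24.1 CPM in the WT mice against 24.7, 20.4 and 18.7 CPM in the Lpcat3 KOMac mice. WT mouse 1 stood far above the rest, and WT mouse 3 and Lpcat3 KOMac mouse 1 overlapped. Without WT mouse 1 the difference was -0.37, and without WT mouse 1 and Lpcat3 KOMac mouse 2 it was -0.34. Isg15 was at 23.9, 17.7 and 18.7 CPM in the WT mice and 18.7, 15.9 and 12.5 CPM in the Lpcat3 KOMac mice (-0.36 ± 0.20). Its highest value was again that of WT mouse 1 and its lowest that of Lpcat3 KOMac mouse 3, with WT mouse 2 below Lpcat3 KOMac mouse 1, and the difference was -0.22 without WT mouse 1 and -0.19 without Lpcat3 KOMac mouse 3.

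The IFIT genes encode proteins that bind viral RNA with a foreign 5′ end, and they lie together on chromosome 19 between 34550694 and 34650009. All 3 had a lower mean in the Lpcat3 KOMac mice, with log2 fold changes from -0.32 to -0.24. Ifit3 was at 129, 113 and 100 CPM in the WT mice and at 86.2, 101 and 86.4 CPM in the Lpcat3 KOMac mice, so that Lpcat3 KOMac mouse 2 reached the level of WT mouse 3 and the others lay lower (-0.32 ± 0.12). Ifit1 was at 26.4, 22.2 and 17.98 CPM against 19.0, 18.5 and 16.0 CPM (-0.32 ± 0.17), and its difference was -0.17 without WT mouse 1. Ifit2 ranged from 90.9 CPM in Lpcat3 KOMac mouse 3 to 152 CPM in WT mouse 1 (-0.24 ± 0.18), and without Lpcat3 KOMac mouse 3 its difference was -0.05. Ifit3 has a close copy, Ifit3b, and reads shared by the pair could have been split or lost in counting.

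Of the Mx genes, which encode dynamin-like GTPases against viruses, neither separated the genotypes. Mx2 was at 10.7, 13.6 and 12.6 CPM in the WT mice and 11.6, 8.43 and 9.01 CPM in the Lpcat3 KOMac mice (-0.34 ± 0.18). Mx1 was at 22.5, 33.4 and 30.6 CPM against 33.4, 25.5 and 23.2 CPM (-0.07 ± 0.20), with its lowest value in WT mouse 1, and its sign turned (0.01) with total counts alone. Per kilobase of exon, Mx2 was the lowest of the 35 genes at 3.04 CPM.

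The OAS family makes or mimics the enzymes that sense double-stranded RNA and signal through 2′-5′-linked oligoadenylate to RNase L. All 5 members had a lower mean in the Lpcat3 KOMac mice, with a median log2 fold change of -0.33. Oas1a stood at 118, 121 and 114 CPM in the WT mice and at 110, 92.5 and 89.5 CPM in the Lpcat3 KOMac mice, a separation in which Lpcat3 KOMac mouse 1 came close to WT mouse 3 (-0.28 ± 0.10, 95% interval -0.53 to -0.03). Oasl2 was at 155, 142 and 136 CPM against 137, 116 and 91.1 CPM, overlapping only between WT mouse 3 and Lpcat3 KOMac mouse 1 (-0.33 ± 0.16), and the difference was -0.16 without Lpcat3 KOMac mouse 3. Oasl1, which restrains translation of Irf7, was at 80.5, 96.6 and 74.0 CPM against 76.3, 43.7 and 70.7 CPM (-0.40 ± 0.23), and Lpcat3 KOMac mouse 2 was far below all others, with a difference of -0.17 without it. Oas2 behaved differently, at 102, 180 and 184 CPM in the WT mice and 165, 96.5 and 156 CPM in the Lpcat3 KOMac mice (-0.16 ± 0.30). Its lowest values were in the libraries with most hepatocyte RNA, WT mouse 1 and Lpcat3 KOMac mouse 2, and the part of hepatocyte RNA in this was not tested. Oas3 ranged from 74.4 CPM in Lpcat3 KOMac mouse 3 to 129 CPM in WT mouse 1 (-0.33 ± 0.18), and Oas1a has close copies such as Oas1g that could share reads with it.

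Bst2, Rsad2 and Cmpk2 act late in viral replication or on its nucleotide supply. Bst2 encodes tetherin, which holds budding virus at the cell surface, and per kilobase of exon it was the most abundant of the 35 genes at 227 CPM. It stood at 276, 198 and 218 CPM in the WT mice and at 193, 163 and 185 CPM in the Lpcat3 KOMac mice (-0.36 ± 0.15, 95% interval -0.73 to 0.01). The genotypes did not overlap, WT mouse 1 was the highest, and the difference was -0.21 without it and -0.14 without both it and Lpcat3 KOMac mouse 2. Rsad2 encodes viperin, which makes a chain-terminating nucleotide, and was at 87.2, 76.5 and 66.9 CPM against 74.6, 56.2 and 62.2 CPM (-0.26 ± 0.15), or -0.07 without those same libraries. Cmpk2, a nucleotide kinase and the neighbour of Rsad2 on chromosome 12, ranged from 38.4 CPM in Lpcat3 KOMac mouse 3 to 66.0 CPM in WT mouse 1 (-0.35 ± 0.19).

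**Figure D4:**
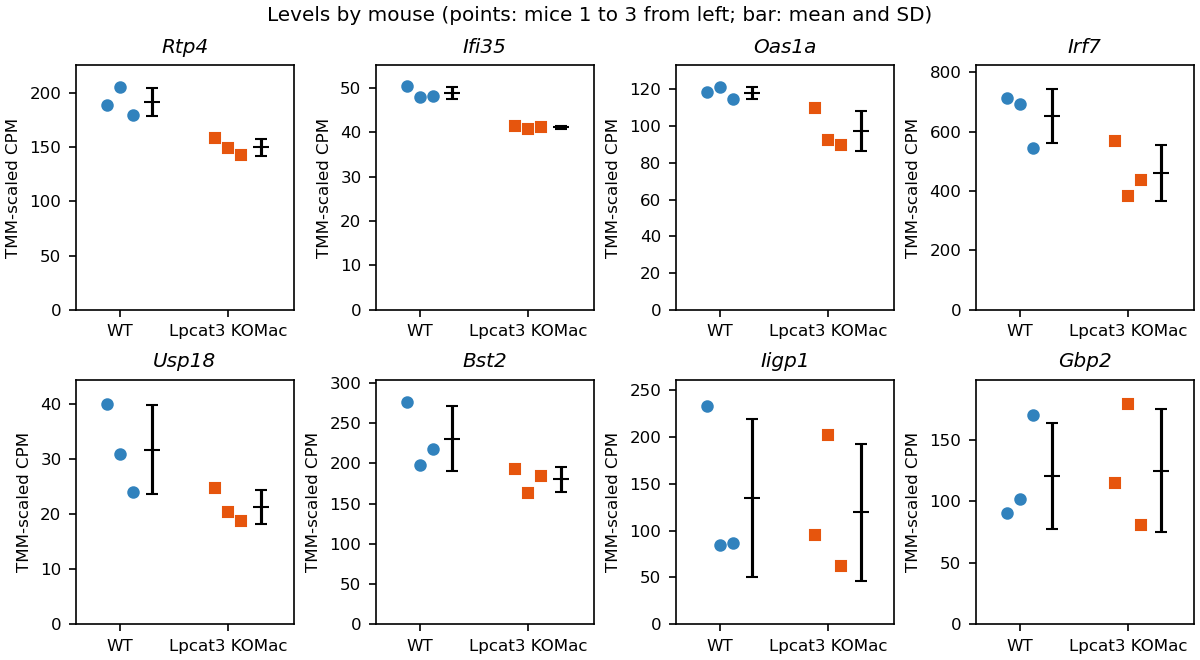
Levels of 8 of the genes in TMM-scaled CPM (y axes from 0) for each mouse (points, blue circles WT and orange squares Lpcat3 KOMac), with the mean and SD of each genotype (n = 3) beside them. Rtp4, Ifi35, Oas1a and Bst2 do not overlap between genotypes, whereas Iigp1 is high in 1 mouse of each genotype.

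The immunity-related GTPases (IRG) and the guanylate-binding proteins (GBP) act on the vacuoles of intracellular microbes and are induced strongly by type II interferon. For each of these 7 genes the pooled SD within a genotype was larger than the difference between the genotype means on the log2 scale. Iigp1 was at 233, 85.1 and 87.3 CPM in the WT mice and at 94.9, 202 and 61.9 CPM in the Lpcat3 KOMac mice, a range of 3.76-fold. WT mouse 1 and Lpcat3 KOMac mouse 2 stood far above the other 4, and the log2 fold change was -0.18 ± 0.60 (95% interval -1.69 to 1.33). Igtp was at 50.1, 40.7 and 40.3 CPM against 35.2, 51.3 and 27.1 CPM, with the same mice highest (-0.21 ± 0.25). Irgm1 (57.9 to 103 CPM, -0.15 ± 0.23) and Ifi47 (49.3 to 83.4 CPM, -0.11 ± 0.19) also had their highest values in those mice.

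Averaged over the 4 IRG genes after centring, WT mouse 1 and Lpcat3 KOMac mouse 2 lay at 0.45 and 0.44 on the log2 scale, Lpcat3 KOMac mouse 3 at -0.61, and the other 3 mice between -0.12 and -0.05. The mice with high IRG levels were those with most hepatocyte RNA, and its part in this was not tested. These mice held the highest pair of values in 21.8% of all genes tested. With the hepatocyte transcript level as a covariate the log2 fold changes of the 4 genes lay between -0.43 (Iigp1) and -0.16 (Ifi47), and without both mice between -0.38 (Igtp) and -0.13 (Iigp1). Igtp shares 162 exonic bases with Irgm2, which had up to 7187 counts in a library.

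Gbp2, the only member with a higher mean in the Lpcat3 KOMac mice, was at 90.3, 102 and 170 CPM in the WT mice and 115, 179 and 80.7 CPM in the Lpcat3 KOMac mice. It was highest in WT mouse 3 and Lpcat3 KOMac mouse 2 (0.05 ± 0.37), and its sign turned to -0.47 without WT mouse 1 and Lpcat3 KOMac mouse 2. Gbp3 (143 to 216 CPM, -0.17 ± 0.16) and Gbp7 (76.3 to 108 CPM, -0.12 ± 0.16) overlapped between genotypes and were lowest in Lpcat3 KOMac mouse 3. The 3 genes lie side by side on chromosome 3 between 142530342 and 142638008. Without Lpcat3 KOMac mouse 3 the IRG genes had differences of 0.01 to 0.16, and Gbp7 of 0.03.

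**Figure D5:**
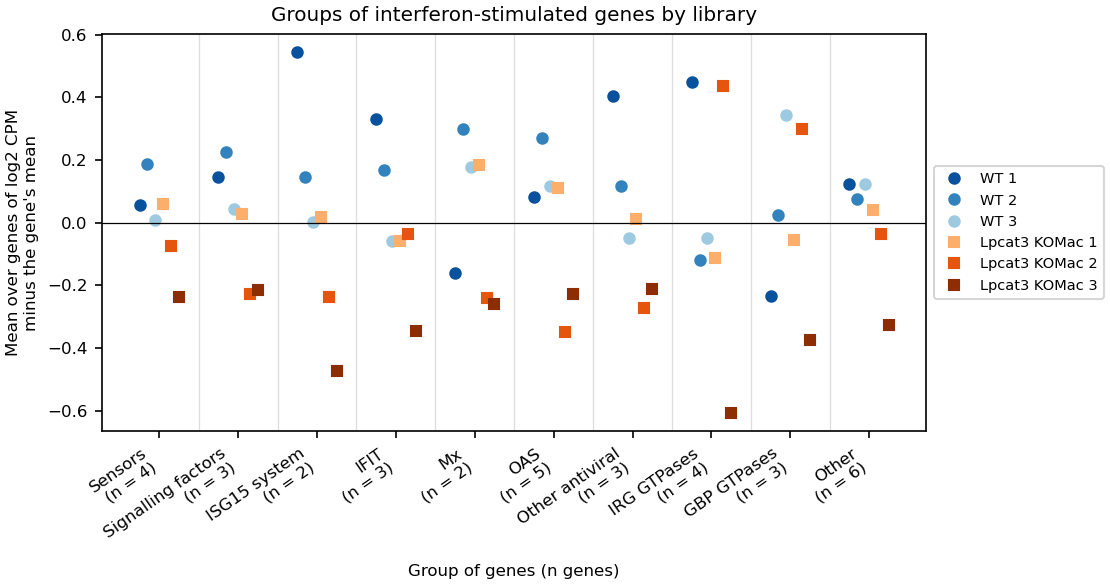
Mean over the genes of each role group (x axis, n genes in parentheses) of log2 CPM minus the gene's mean over the 6 libraries (y axis), 1 point per mouse. Lpcat3 KOMac mouse 3 is below 0 in every group, and Lpcat3 KOMac mouse 2 is below 0 in most groups but at 0.44 for the IRG and 0.30 for the GBP GTPases.

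The other 6 members included the 2 genes with the smallest unadjusted p. Rtp4, a chaperone of G protein-coupled receptors that is also induced by interferon, was at 189, 205 and 180 CPM in the WT mice and at 158, 149 and 143 CPM in the Lpcat3 KOMac mice (-0.35 ± 0.09, 95% interval -0.57 to -0.14). Ifi35, an interferon-induced leucine zipper protein, was at 50.5, 47.8 and 48.1 CPM against 41.4, 40.7 and 41.1 CPM (-0.25 ± 0.07, 95% interval -0.42 to -0.08). Every Lpcat3 KOMac mouse was lower than every WT mouse for both, and for Ifi35 the spread within a genotype was the lowest of the 35 genes (pooled SD of 0.03 on the log2 scale, against 0.22 for the median member). Their unadjusted p of 0.00731 (Rtp4) and 0.0121 (Ifi35) in edgeR gave an adjusted p of 1.00. Neither moved by much without the libraries rich in hepatocyte RNA, at -0.36 for Rtp4 and -0.21 for Ifi35.

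Xaf1, a factor that counters inhibitors of apoptosis, was at 32.5, 41.4 and 39.1 CPM in the WT mice and at 35.8, 28.5 and 29.3 CPM in the Lpcat3 KOMac mice, overlapping between WT mouse 1 and Lpcat3 KOMac mouse 1 (-0.27 ± 0.14). Ifi44 was the most variable member, at 70.3, 23.0 and 51.9 CPM against 50.8, 72.9 and 18.3 CPM, a range of 3.98-fold. It was high in WT mouse 1 and Lpcat3 KOMac mouse 2 like the IRG genes, its log2 fold change was -0.03 ± 0.62, and with total counts alone its sign turned (0.07). Trim30a (216 to 282 CPM, -0.15 ± 0.11) and Parp14 (228 to 388 CPM, -0.20 ± 0.21) overlapped between genotypes and were highest in WT mouse 2.

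The genes upstream of the response were read from lists of the pathway. Of 19 interferon genes none had enough counts to be tested, and 18 never exceeded 3 counts in a library. The exception was Ifng, the type II interferon, at 0.0200 to 0.193 CPM, and Ifnb1 was at 0.0219 CPM or less. Of 6 receptor genes 5 were tested and all 5 had a lower mean in the Lpcat3 KOMac mice, with a median log2 fold change of -0.14. Ifnar2, a chain of the type I receptor, was at 238, 282 and 252 CPM in the WT mice and 228, 211 and 238 CPM in the Lpcat3 KOMac mice (-0.19 ± 0.10). Il10rb, a chain of the type III receptor, was at 247, 267 and 253 CPM against 239, 210 and 245 CPM (-0.14 ± 0.09), and these were the receptors without overlap between genotypes, Ifnar2 by a narrow margin. Ifnar1 (-0.12 ± 0.14), Ifngr1 (-0.33 ± 0.16) and Ifngr2 (-0.14 ± 0.15) overlapped, and Ifnlr1 stayed at or below 0.850 CPM.

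Of the 8 kinases and factors 5 were lower and 3 higher, with none separated. Irf1, a transcription factor of the interferon response, was at 157, 237 and 231 CPM in the WT mice and 165, 208 and 169 CPM in the Lpcat3 KOMac mice (-0.20 ± 0.19), with overlapping genotypes. Of 8 genes that sense nucleic acid or relay that signal to interferon production, 7 were lower, none was separated and the median was -0.09. Of 6 negative regulators 5 were lower, and Irf2 (-0.15 ± 0.08) and Irf2bp1 (-0.11 ± 0.08) were separated. No gene of these lists was called in edgeR or had an unadjusted p under 0.05. Of all genes tested, 59.9% were lower and 5.2% were separated downwards.

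A list of 68 further interferon-stimulated genes, of which 67 were tested, showed the same direction. There, 60 (89.6%) were lower and 7 higher in the Lpcat3 KOMac mice, against 59.9% of all genes lower, and the median log2 fold change was -0.16. Separated downwards were 12 (17.9%), against 5.2% of all genes, and none upwards, against 2.29%. In 6 (8.96%) the unadjusted p in edgeR was under 0.05, against 2.64% of all genes. This list too was drawn up with earlier results known, and it holds close copies of members, such as Ifit3b and Oas1g. Ifitm3, which blocks virus entry, was at 608, 522 and 442 CPM in the WT mice and 413, 336 and 340 CPM in the Lpcat3 KOMac mice (-0.53 ± 0.15). Ifi27l2a was at 132, 127 and 109 CPM against 107, 72.5 and 77.2 CPM (-0.52 ± 0.17), and Gbp2b at 148, 219 and 214 CPM against 133, 146 and 80.9 CPM (-0.69 ± 0.27). Ifit3b (-0.36 ± 0.13), the surface protein gene Ly6e (-0.30 ± 0.09) and the immunoproteasome subunit Psmb10 (-0.24 ± 0.09) completed the genes with both a separation and an unadjusted p under 0.05 in edgeR. The adjusted p of each of these 6 was 1.00.

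The marker lists moved in both directions. All 5 hepatocyte markers had a lower mean in the Lpcat3 KOMac mice, with a median log2 fold change of -0.28. Their sums overlapped widely, at 1720 to 19500 CPM in the WT mice and 4370 to 12700 CPM in the Lpcat3 KOMac mice. The median log2 fold change of the Kupffer cell markers (-0.27) was close to that of the 35 members (-0.23), and their part in the members' difference was not tested. The 5 tested neutrophil markers had higher means in the Lpcat3 KOMac mice, and S100a8 and Cxcr2 were separated upwards. All 6 listed summed to 3.36 to 5.18 CPM in the WT mice and 6.47 to 8.04 CPM in the Lpcat3 KOMac mice. Ly6g, which defines the cell, never exceeded 3 counts. Markers of plasmacytoid dendritic cells, a major source of type I interferon, summed to between 2.02 and 3.28 CPM in the WT mice and 2.36 and 4.28 CPM in the Lpcat3 KOMac mice. Sums were 4.34 to 5.17 CPM against 4.02 to 5.98 CPM for T cells and 43.6 to 62.9 CPM against 40.6 to 46.8 CPM for NK cells. They were 31.4 to 278 CPM against 42.5 to 145 CPM for B cells. For conventional dendritic cells they were 21.6 to 60.3 CPM against 35.1 to 41.6 CPM. Of these lists, Cd3d (T cells) and Klrb1c (NK cells) were separated upwards. Markers of sinusoidal endothelium summed to between 849 and 948 CPM against 926 and 1150 CPM, with 5 of 6 higher. Markers of recruited monocytes and macrophages summed to 105 to 232 CPM in the WT mice and 123 to 204 CPM in the Lpcat3 KOMac mice. Of these, 4 of 6 had a higher mean, with a median log2 fold change of 0.42. Chil3 was separated upwards (1.70), at 1.12, 1.04 and 2.12 CPM against 8.77, 2.43 and 2.70 CPM. Most of its difference lay in Lpcat3 KOMac mouse 1. Markers of stellate cells summed to 54.1 to 134 CPM against 99.0 to 178 CPM, with 5 of 5 higher and Pdgfrb separated upwards. Of all genes tested, 59.9% were lower and 2.29% were separated upwards. The part of the listed cell types in the members' levels was not tested.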

How the data were processed

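RNA of F4/80-positive liver cells from 6 mice was sequenced, with a library for each. Raw read counts per gene, without normalization, were deposited by the authors, in 1 table per mouse. The submitters' processing notes name Trimmomatic 0.36, STAR 2.5.2b and featureCounts of Subread 1.5.2, and gene positions are those of GRCm38. The annotation release, the strand setting and the treatment of reads with several matches are not given in the sources used here, so overlapping genes and close copies are uncertain.

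Genotypes were taken from the labels, and the genotypes were tested by edgeR 4.0.16 under R 4.3.3 (TMM, expression filter with a minimum count of 10, quasi-likelihood test with robust estimation, Benjamini-Hochberg adjustment over 16134 genes, calls at an adjusted p under 0.05). The scripts were tested on simulated data. Log2 CPM used a prior count of 2, and 3 counts in a library were taken as the floor of detection. Counts of members lay between 424 and 46407 per library, so the spread between mice, rather than counting error, limits precision. Levels per kilobase divide the mean CPM by the exonic length deposited with the counts. Gene symbols are from GENCODE M21, in which 49056 of 49315 IDs were found. Promoter windows are from RefSeq (GRCm38.p6), and each match was compared as letters only.

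The members and lists were chosen with earlier results of these data known. Every library's value is given for members separated between genotypes, the 10 with the smallest unadjusted p, the 5 with the largest ratio of highest to lowest library, and 11 set by role. Further pathway genes are named if separated with an unadjusted p under 0.05, together with the receptors, Ifnb1, Ifng and Irf1, which were set by name, as was 1 gene that is not reported here. Separated Irf2 and Irf2bp1 were named after their values were seen. Alternatives were DESeq2 size factors, total counts alone, no filter, DESeq2 1.42.0, limma-voom (limma 3.58.1), no robust estimation, a replicate block, a hepatocyte covariate, a length offset and leaving out each mouse. Leaving out WT mouse 1 and Lpcat3 KOMac mouse 2 together was added after seeing the data.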

Additional observations from a re-analysis of the deposited data

How the results depend on the processing

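No alternative called a member at an adjusted p under 0.05, and the median log2 fold change of the 35 genes stayed negative in each, between -0.27 and -0.13. DESeq2 called 15 genes in the whole table, none of them a member. The number of members with an unadjusted p under 0.05 (6 in edgeR as reported) was 2 with total counts alone, 11 with the hepatocyte covariate, where 9.23% of all genes passed, and 1 to 7 when each mouse was left out, where 1.09% to 12.3% of all genes passed. The number separated downwards (7) was 2 with total counts alone (1.44% of all genes), 3 with the length offset (3.66%), 6 to 18 with each mouse left out (4.95% to 15.3%), and 17 without both WT mouse 1 and Lpcat3 KOMac mouse 2, where 21.1% of all genes were separated downwards. The cause of these shifts was not tested.

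Single genes whose difference was small beside its error changed sign. With total counts alone the log2 fold change of Ifih1 was 0.0086, of Mx1 0.013 and of Ifi44 0.074, with the hepatocyte covariate that of Mx1 was 0.026 and of Oas2 0.031, and without both mice that of Gbp2 was -0.47. Leaving out each mouse in turn gave -0.17 to 0.011 for Ifih1, -0.22 to 0.058 for Mx1, -0.39 to 0.068 for Oas2, -0.48 to 0.015 for Igtp, -0.35 to 0.060 for Irgm1, -0.78 to 0.47 for Iigp1, -0.27 to 0.10 for Ifi47, -0.28 to 0.38 for Gbp2, -0.23 to 0.030 for Gbp7, -0.48 to 0.38 for Ifi44 and -0.36 to 0.0064 for Parp14. The other 24 members kept a negative sign in every alternative run.

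The labels number the mice of both genotypes 1 to 3, but same-numbered libraries did not deviate together, with correlations of -0.30, -0.60 and 0.36 for numbers 1, 2 and 3. With the replicate number as a block, 0 members were called, 6 had an unadjusted p under 0.05 and the median was -0.25. With 3 mice per genotype, edgeR called no gene at all. Lpcat3 itself, at a log2 fold change of -1.56, was not called, so the lack of a call says little about the members.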
